A study of Mus musculus with 11 samples.

Results

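The control libraries of a study of Dicer and cMyc in mouse embryonic stem cells (ESCs) were compared gene by gene: 2 libraries from wild-type cells that served as controls for a Dicer deletion (Dcr WT), and 1 library from cells with both cMyc alleles floxed, that is flanked by recombinase sites but not deleted (cMyc flox). They are 3 of the 11 samples of the series, and no knockout sample was used. The genes are the 16484 RefSeq coding entries listed in both deposited tables, ranked by reads within each library. Per the labels, all 3 libraries came from strain 129S4/SvJae ESCs kept without feeder cells on gelatin, and held poly(A)-selected RNA prepared by the directional dUTP method. The Dcr WT libraries are paired-end and the cMyc flox library is single-end. The labels do not say whether the Dcr WT replicates were separate cultures, nor whether either line is a single clone.

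The cells were compared as ranks because the tables were normalised separately and the cMyc flox line has 1 library. Line, table and library format go together here and cannot be told apart, so no difference between the lines was tested. A gene's percentile is its place among the 16484 genes, with 100 at the most reads. Levels are given as reads per 1000000 reads on these genes (RPM). The distance between the Dcr WT libraries is the only measure of spread within a line. A longer mRNA collects more reads at the same abundance, so an order of genes is an order of reads and not of molecules per cell. In bulk RNA, fewer cells of a type and less RNA per cell cannot be told apart.

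The libraries held 101815723, 206721717 and 24660365 reads (Dcr WT 1, Dcr WT 2 and cMyc flox), of which 88.4%, 88.7% and 59.7% fell on the shared coding genes. In the cMyc flox library, 28.1% of reads lay on 2 ribosomal RNA features, which the Dcr table does not list. A gene with no read could still hold up to 0.0333, 0.0164 and 0.204 RPM in the same order, the level that a count of 0 allows for counting error alone. Of the shared genes, 276 had no read in any of the 3 libraries.

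ESCs divide fast and are held in the naive state by a circuit of transcription factors around Pou5f1 (Oct4), Sox2 and Nanog, fed by LIF through Stat3 and Klf factors. Rapid growth rests on a large output of ribosomes, translation factors, chaperones, cytoskeleton and glycolytic enzymes. Myc factors promote that growth programme, and Dicer cuts the precursors of microRNAs.

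Of the 8 genes listed as translation elongation factors 4, and of 78 cytosolic ribosomal proteins 5, were among the 100 genes with the most reads in all 3 libraries. Many mRNAs of the translation machinery start with a run of pyrimidines, the 5′ terminal oligopyrimidine tract, through which mTOR signalling controls their translation. The start sites of 4 genes near the top are shown because they hold such a run in some cases and not in others. Each window is 30 bases of the gene's strand from RefSeq (GRCm38.p6), 15 before and 15 from the annotated start. Capitals mark a run of at least 5 consecutive C or T that covers the first transcribed base.
Rack1 (chr11:48800345-48800374, plus strand): cggaggccgCTCTTTCTTTTTCTCCacagg
Eef1a1 (chr9:78481710-78481739, minus strand): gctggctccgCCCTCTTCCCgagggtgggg
Eef2 (chr10:81176616-81176645, plus strand): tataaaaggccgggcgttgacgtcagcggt
Rplp0 (chr5:115559452-115559481, plus strand): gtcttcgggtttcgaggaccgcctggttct

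Rack1 and Eef1a1 have the run at the annotated start, and Eef2 and Rplp0 do not. Rps3, Rpl4, Eif5a and Eef1b2, which also stood near the top, have no such run. Counted the same way, on the gene's own strand only, 19 of the 58 ribosomal protein genes with a start sequence have one (32.8%), beside 1175 of all 12911 shared genes with one (9.1%). The annotated start may differ from the one used in these cells, and the match is a description of these letters. Rpl8 also stood near the top.

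By mean percentile over the 3 libraries, elongation factors, a cytosolic chaperone and cytoskeletal proteins stood highest. Hsp90ab1, a cytosolic chaperone of the Hsp90 family, had 7959.8 and 5641 RPM in the Dcr WT libraries and 7453 in cMyc flox. Eef1a1, which brings aminoacyl-tRNA to the ribosome, had 7019.8, 7355 and 10692 RPM in the same order and ranked 4, 2 and 1. For Eef2, the factor that moves the ribosome along the mRNA, the levels were 7931, 7260.5 and 6158 RPM. The cMyc flox level of Eef1a1 was thus above both Dcr WT levels, that of Eef2 below both, and that of Hsp90ab1 between them.

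Actb, cytoplasmic beta-actin, had 7176, 5235 and 6703 RPM. Tubb5, a beta-tubulin, had 5643, 3679 and 3776. Pkm, the last enzyme of glycolysis, had 3289.5, 1978 and 4105 RPM, so the Dcr WT libraries differed from each other by more than Dcr WT 1 differed from cMyc flox. Trim28, the corepressor that KRAB zinc finger proteins bring to retroviral elements, took 3955 and 3027 RPM in Dcr WT and 2243 in cMyc flox.

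Other genes among the 12 with the highest mean percentile were Rack1, a protein of the small ribosomal subunit, Atp5b, the catalytic subunit of ATP synthase, Nedd4, a ubiquitin ligase, and the ribosomal proteins Rpl8 and Rpl4. Rplp0, a ribosomal stalk protein, was among the 5 highest of cMyc flox alone, with 1395 and 1453 RPM in Dcr WT and 4946 in cMyc flox. Lars2, the mitochondrial leucyl-tRNA synthetase, ranked 23, 1 and 52, with 1587, 9279 and 1244 RPM. Dcr WT 2 stood alone for Lars2, while the other 2 libraries were close. Eno1b and Eno1 are near-identical copies, so the division of reads between them is uncertain.

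**Figure D1:**
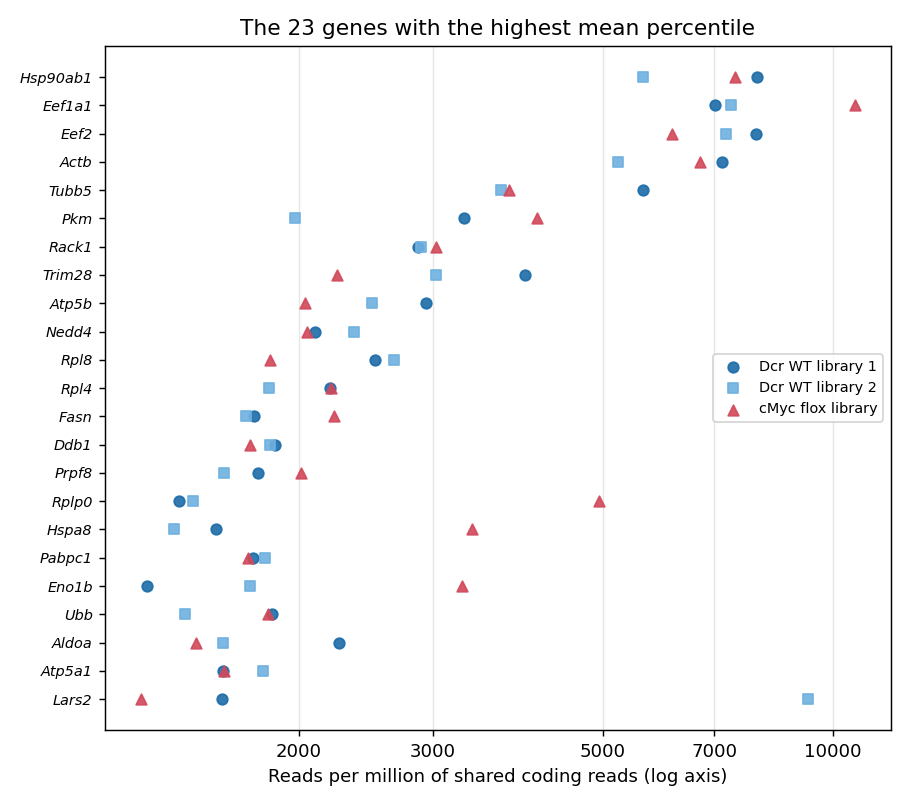
Reads per 1000000 reads on shared coding genes (RPM, log axis) in each of the 3 libraries for the 23 genes with the highest mean percentile, 1 point per library. Hsp90ab1, Eef1a1, Eef2 and Actb lie farthest to the right in Dcr WT library 1, and the Dcr WT library 2 point of Lars2 lies far to the right of the other 2.

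Of the 100 genes with the most reads, 60 were common to all 3 libraries (60.0% of each list). The Dcr WT libraries shared 82 of 100 with each other, and 65 and 68 with cMyc flox. These lists held 16.0%, 15.6% and 17.9% of the reads on shared genes. By family, the 60 common genes included 5 ribosomal proteins, 5 actin and tubulin genes, 4 elongation factors, 3 initiation factors, 3 glycolytic enzymes, 2 chaperones and 2 subunits of ATP synthase.

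The make-up of the list differed most, among the lists counted, by ribosomal proteins, which filled 6, 5 and 14 of the 100 places in Dcr WT 1, Dcr WT 2 and cMyc flox. Chaperones filled 7, 8 and 4 places, and glycolytic enzymes 4, 3 and 6. Core and naive pluripotency genes filled 4, 1 and 0. The metallothioneins Mt1 and Mt2, small metal-binding proteins, were among the 100 in cMyc flox alone: Mt2 had 428, 249.8 and 2001 RPM, and Mt1 399, 298 and 1134.

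Below the top, the ranks of the libraries were compared over the 8298 genes whose mean percentile over the 3 libraries was at least 50, called here the genes above the midpoint. The Dcr WT libraries lay a median of 2.24 points apart, and 90% of these genes lay within 6.92 points. In cMyc flox, 1891 genes (22.8%) had a percentile between those of the Dcr WT libraries, and 6576 (79.3%) lay within 5 points of the nearer one. Spearman's rho across these genes was 0.96 between the Dcr WT libraries, and 0.873 and 0.902 between each of them and cMyc flox. Genes are not independent replicates, and the Dcr WT pair also shares its table and read format.

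A gene was counted as differing where cMyc flox lay at least 10 points above or below both Dcr WT libraries. By that rule 328 genes (3.95%) stood higher in cMyc flox and 224 (2.7%) lower. The cMyc flox rank enters the mean that sets the midpoint, and 60 of the 328 lay below percentile 50 in both Dcr WT libraries, so they were admitted through cMyc flox. With the midpoint set by the Dcr WT libraries alone, a choice made after seeing the data, 248 of 8284 genes stood higher (2.99%) and 244 lower (2.95%), so higher and lower calls were then about even. For comparison, the Dcr WT libraries lay 10 or more points apart at 263 genes (3.17%), with Dcr WT 2 higher at 154 (1.86%) and lower at 109 (1.31%). Of the 328, the distance exceeded the gap between the Dcr WT libraries at 315, and of the 224 at 218. In RPM, with 1 added to each level, 250 genes (3.01%) stood at least 2-fold above both Dcr WT libraries and 133 (1.6%) below both, and the Dcr WT libraries lay 2-fold apart at 129 (1.55%). The median log2 ratio of cMyc flox to the Dcr WT mean was -0.14 over the 8298 genes. The members just inside and outside the threshold lay at 10 and 9.94 points above, and at -10 and -9.98 points below. The fewest cMyc flox reads of a counted gene were 62. A rank cannot move up 10 points from the top, and 1812 genes already stood above percentile 90 in a Dcr WT library. Without Dcr WT 2 the counts were 616 and 528, since a gene then has to pass only 1 library.

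**Figure D2:**
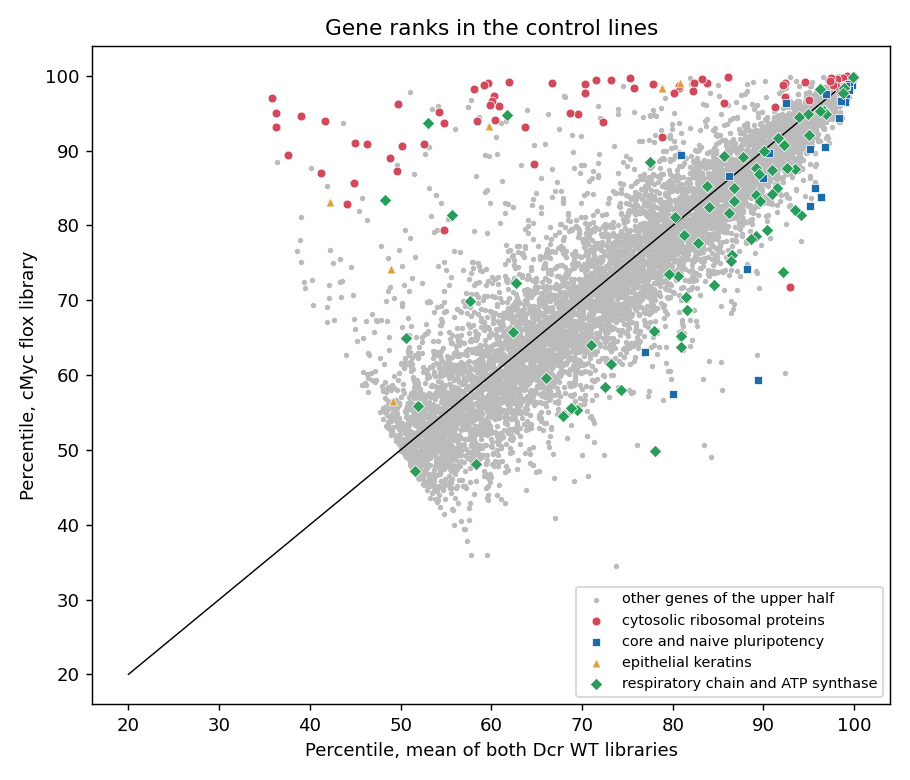
Percentile in the cMyc flox library against the mean percentile of both Dcr WT libraries for the 8298 genes above the midpoint, with 4 families coloured and the line of equal rank. Ribosomal protein genes and keratins lie mostly above the line, and pluripotency genes mostly below it.

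Ribosomal proteins were the family with the widest distance between the lines. They build the cytosolic ribosome and are made in equal amounts. Their median percentile was 71.7 and 72.4 in Dcr WT and 97.5 in cMyc flox, and their 78 genes took 1.96%, 1.91% and 4.53% of reads. Of the 75 above the midpoint, 48 stood at least 10 points higher in cMyc flox and 1 lower, against 3.95% and 2.7% of all genes. Of these, 10 were below percentile 50 in both Dcr WT libraries and passed the midpoint through cMyc flox. With the midpoint set by Dcr WT alone, 34 of 61 stood higher and 1 lower, against 2.99% and 2.95%. The Dcr WT libraries themselves lay 10 or more points apart at 18 of the 75, against 3.17% of all genes.

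Rpl36a, a protein of the large subunit, had 4.05 and 5.99 RPM in Dcr WT and 340.1 in cMyc flox, the widest distance of all genes above the midpoint (59.8 points). Rpl23a, also of the large subunit, had 8.66, 2.74 and 245 RPM. Rps29, of the small subunit, had 4.80, 9.49 and 227. Each of these cMyc flox levels lay far beyond the gap between the Dcr WT libraries. Rpl36a, Rpl23a and Rps29 lay below the midpoint by the Dcr WT ranks and passed it through cMyc flox. The read ratio of cMyc flox to Dcr WT for Rpl36a was 84.1 (95% interval 75.6 to 93.8) and 56.8 (53.2 to 60.6), for counting error only.

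Other members did not follow. Rpl4 had 2201, 1832 and 2203 RPM, so the cMyc flox level was close to that of Dcr WT 1. Rpl8 had 2516, 2667 and 1838, lower in cMyc flox. Rps21, of the small subunit, had 174, 209 and 48.3 RPM and was the member at least 10 points lower. Rpl18 and Rps26 differed widely between the Dcr WT libraries, in opposite directions: Rpl18 had 364, 36.3 and 494 RPM, and Rps26 54.6, 523 and 1627.

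Many ribosomal protein genes have processed pseudogenes, copies of the spliced mRNA elsewhere in the genome, whose reads can be hard to assign. The genes were therefore split by the number of pseudogenes named after them in RefSeq, a split chosen after seeing the data. Of the 14 ribosomal protein genes above the midpoint with no named pseudogene, 5 stood at least 10 points higher in cMyc flox (35.7%). With 1, 2 and 3 or more named pseudogenes the counts were 8 of 17 (47.1%), 7 of 11 (63.6%) and 28 of 33 (84.8%). The distance between the Dcr WT libraries moved the same way: 10 points or more at 1 of 14, 3 of 17, 3 of 11 and 11 of 33.

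Outside the ribosomal proteins, 227 of 8015 genes with no named pseudogene stood higher (2.83%). With 1, 2 and 3 or more the counts were 38 of 151 (25.2%), 10 of 38 (26.3%) and 5 of 19 (26.3%). There the share differed between genes with and without a named pseudogene, and was similar whatever their number. All these counts are over genes above the midpoint, to which the cMyc flox rank contributes. The part of read assignment in these differences was not tested. No source used here says how reads with several matches were counted.

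**Figure D3:**
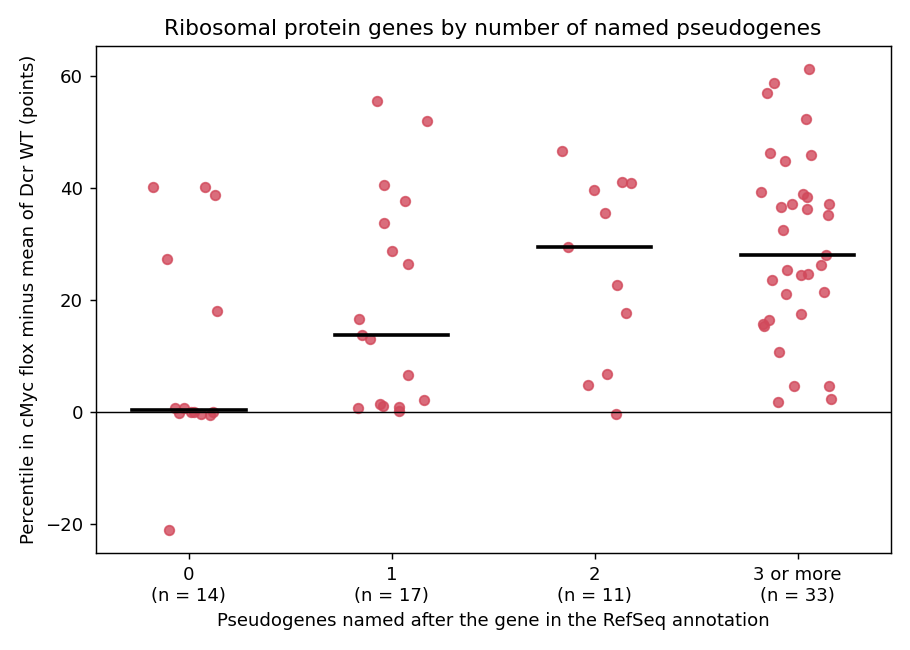
Percentile in cMyc flox minus the mean percentile of Dcr WT for each of the 75 ribosomal protein genes above the midpoint, grouped by the number of pseudogenes named after the gene, with the median of each group as a bar. The median is 0.358 points with no named pseudogene, 13.7 with 1, 29.5 with 2 and 27.97 with 3 or more.

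The other families of the translation machinery lay closer together in the 3 libraries. The 8 genes listed as elongation factors had median percentiles of 98.1, 97.5 and 99.5. The 1 member at least 10 points higher in cMyc flox was Tpt1, with 64.4, 117 and 1260.05 RPM, which has 7 named pseudogenes. Tpt1, the translationally controlled tumour protein, is not itself an elongation factor. Initiation factors (53 genes) had medians of 91.0, 92.0 and 92.3, with 2 higher and 1 lower of 49, near the 3.95% and 2.7% of all genes. The 19 cytosolic aminoacyl-tRNA synthetases, which charge tRNAs, had medians of 96.2, 96.2 and 94.9, with 0 of 18 at least 10 points away in either direction.

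Mitochondrial families stood lower in cMyc flox in more of their members than the background share. Mitochondrial ribosomal proteins (77 genes) had median percentiles of 73.3, 72.3 and 67.0, and 0 of 73 stood higher and 5 lower, against 3.95% and 2.7% of all genes. The nuclear-encoded subunits of the respiratory chain and ATP synthase (78 genes) had medians of 84.0, 82.9 and 79.0, with 5 of 70 higher and 16 lower. Uqcr11, a small subunit of complex III, had 70.9, 67.2 and 15.4 RPM. Uqcr10, of the same complex, had 178, 175 and 53.01. The 5 higher members included Atp5g2, a subunit of the ATP synthase ring, with 27.2, 13.2 and 203 RPM, and Cox5b, of complex IV, with 11.7, 17.4 and 88.3. Proteins encoded in mitochondrial DNA are not among the ranked entries.

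Chaperones, cytoskeleton and glycolysis kept high places in every library. Chaperones and chaperonins (24 genes) had medians of 98.9, 99.1 and 98.9, and 1 of 24 stood at least 10 points higher, against 3.95% of all genes: Dnaja1, a cochaperone of Hsp70, with 28.8, 26.3 and 134 RPM. Glycolysis (21 entries, Aldoa having 2) had medians of 94.1, 93.4 and 97.2, with 3 of 20 higher and 0 lower, against 3.95% and 2.7% of all genes. They were Pgk1, with 36.2, 23.5 and 165 RPM, Gapdh, with 111, 33.7 and 551, and Pgam1, with 105, 104 and 353; each has 2 or 3 named pseudogenes. Slc2a1, the glucose transporter Glut1, had 666, 432 and 1078 RPM, and Slc2a3, Glut3, had 1515, 1176 and 992.

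Genes of DNA replication had medians of 93.1, 93.7 and 91.7. In cMyc flox 18 of the 24 stood below both Dcr WT libraries, but 0 by 10 points. The proteasome had medians of 92.3, 92.5 and 90.8, with 4 of 34 higher and 1 lower, against 3.95% and 2.7%. Psma5, of its inner core, had 12.3, 19.7 and 122 RPM, and Psmb1 292, 219 and 90.3.

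**Figure D4:**
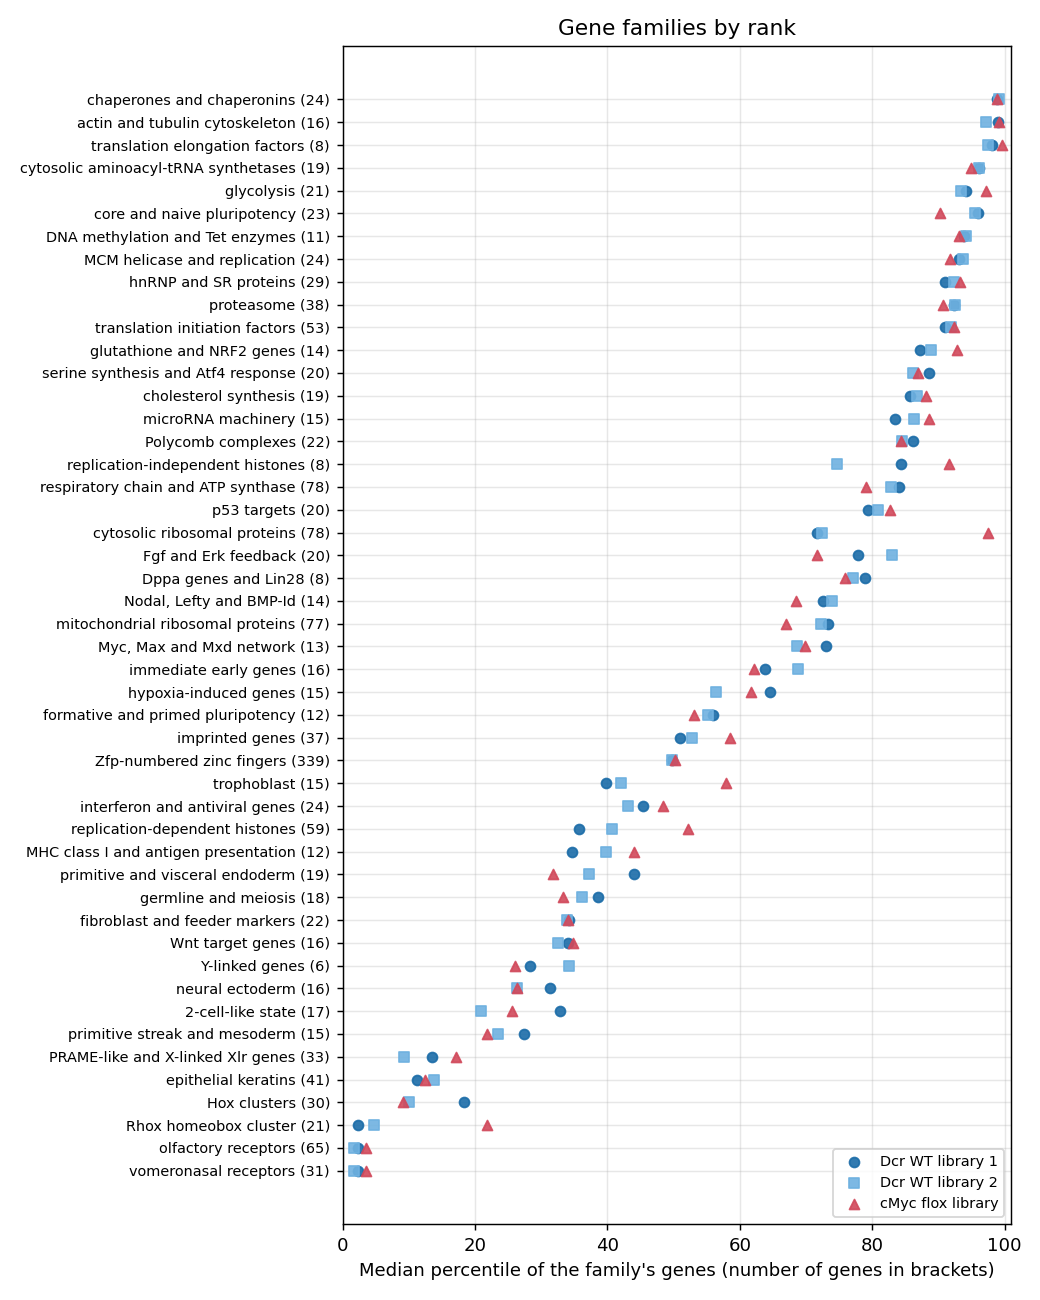
Median percentile of each gene list with at least 6 ranked genes, 1 point per library, with the number of genes in brackets. Cytosolic ribosomal proteins show the widest gap between cMyc flox (97.5) and Dcr WT (71.7 and 72.4), and chaperones lie at about 99 in all 3.

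The defining markers of ESCs stood high in all 3 libraries. Pou5f1, the POU factor that holds pluripotency, had 1183 and 1317 RPM in Dcr WT and 587 in cMyc flox, at percentiles 99.7, 99.8 and 98.8. Sox2, its partner, had 496, 542 and 312 RPM, at percentiles 98.5, 98.6 and 96.6. Nanog, the homeobox factor of the naive circuit, had 816, 559.98 and 303 RPM, at percentiles 99.4, 98.7 and 96.5. All 3 markers thus lay among the top 5% of ranks in every library, and lower in cMyc flox than in both Dcr WT libraries. The read ratio of cMyc flox to Dcr WT was 0.496 (95% interval 0.485 to 0.507) and 0.446 (0.436 to 0.455) for Pou5f1, and 0.372 (0.360 to 0.383) and 0.542 (0.526 to 0.558) for Nanog.

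Across the 23 core and naive pluripotency genes the same order held for most members. Their median percentile was 96.0 and 95.5 in Dcr WT and 90.3 in cMyc flox, and they took 0.957%, 0.823% and 0.521% of reads. In cMyc flox 19 of the 23 stood below both Dcr WT libraries, 2 above both and 2 between. By 10 points or more, 7 stood lower and 0 higher, against 2.7% and 3.95% of all genes. Most of the 23 stood above percentile 90 in a Dcr WT library, so they could not stand 10 points above both. The 7 included Tbx3, Tcl1, Nr0b1, Nr5a2, Klf2 and Klf4.

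Tbx3, a T-box repressor that supports self-renewal, had 155 and 126 RPM in Dcr WT and 26.0 in cMyc flox, a ratio of 0.168 (95% interval 0.152 to 0.186) and 0.207 (0.186 to 0.229). Klf4, a Krüppel-like factor downstream of LIF, had 432, 225 and 90.5 RPM. Klf2, its relative, had 286, 215 and 84.6. Klf4 also differed between the Dcr WT libraries, but both lay above cMyc flox.

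Nr0b1 (Dax1), an orphan nuclear receptor, had 125, 127 and 54.2 RPM. Nr5a2, a nuclear receptor that binds the Pou5f1 promoter, had 71.6, 59.4 and 31.3, and Tcl1, an Akt coactivator, had 122, 53.3 and 23.4. For Nr0b1 the Dcr WT levels were close to each other, while Tcl1 stood at percentiles 87.6 and 72.4 in them and 57.4 in cMyc flox.

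The members above both Dcr WT libraries in cMyc flox were Zfp42 (Rex1), a zinc finger marker of the naive state, with 176, 191 and 299 RPM, and Fbxo15, a Pou5f1 target, with 106, 64.2 and 134. Stat3, the effector of LIF, had 163, 146 and 138 RPM. L1td1 and Gdf3 lay between the Dcr WT libraries. Both Zfp42 and Fbxo15 stood within 10 points of the nearer Dcr WT library.

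**Figure D5:**
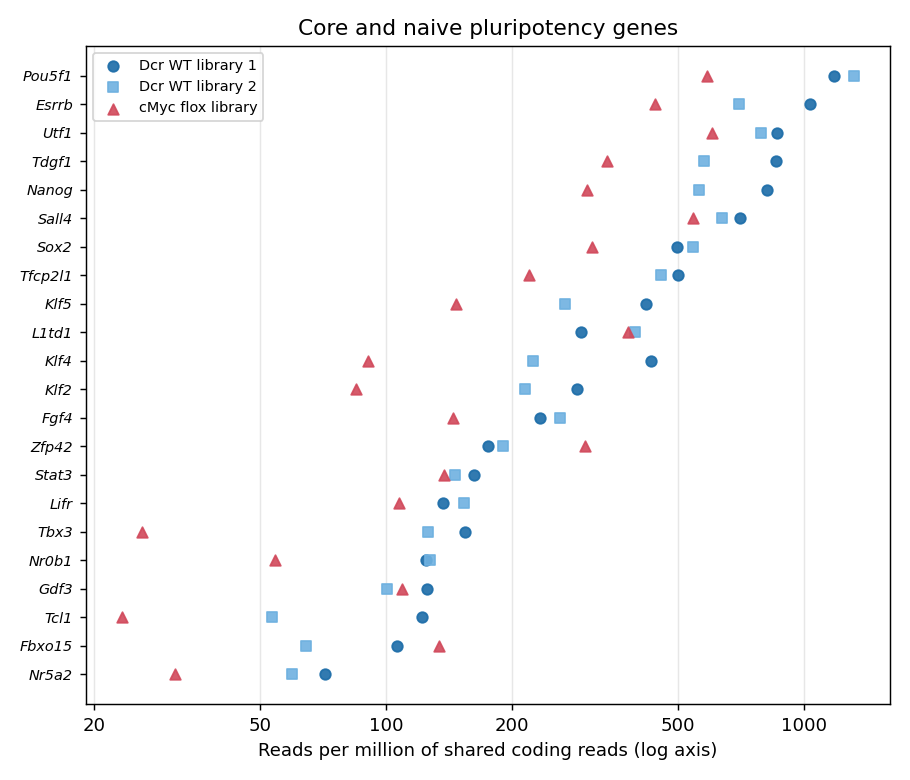
Reads per 1000000 reads on shared coding genes (RPM, log axis) for 22 of the 23 core and naive pluripotency genes in each library, ordered by the Dcr WT mean. The cMyc flox point lies to the left of both Dcr WT points for 18 genes and to the right of both for Zfp42 and Fbxo15.

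The Dppa and Lin28 genes were split. By percentile, 3 of the 7 above the midpoint stood lower in cMyc flox than in both Dcr WT libraries, 1 higher than both and 3 between. All 8 genes of that list had median percentiles of 78.9, 77.0 and 75.9, with 0 of 7 at least 10 points away in either direction. Over all genes, 3.95% stood higher and 2.7% lower. Lin28a, an RNA-binding protein that blocks let-7, had 431, 614 and 414 RPM, and Trim71, a let-7 target, had 466, 812 and 423. Dcr WT 2 was the highest library for both. Dppa2, a DNA-binding partner of Dppa4, had 75.6, 26.2 and 45.8, so cMyc flox lay between the Dcr WT libraries. Dppa1 had no read in any library.

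Of the formative and primed genes, which mark the epiblast after the naive state, Dnmt3b had 459.6, 580.0 and 829 RPM, Otx2 9.20, 20.4 and 20.8, and Pou3f1 26.6, 36.7 and 40.6. Foxd3 had 30.7, 25.01 and 4.89 RPM. It was the 1 of 7 members above the midpoint at least 10 points lower in cMyc flox, against 2.7% of all genes. Fgf5, the usual primed marker, had 1.38, 2.36 and 1.70. The low Fgf5 level was common to all 3 libraries.

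Signalling genes of the Fgf and Nodal pathways showed members on both sides. Fgf4, the ligand that ESCs secrete, had 234, 260.4 and 145 RPM. Among the 14 Fgf and Erk genes above the midpoint, Spry4, Etv4, Fgf17 and Egr1 stood at least 10 points lower in cMyc flox, and the receptor Fgfr2 stood higher, against 2.7% lower and 3.95% higher over all genes. Spry4, a feedback inhibitor, had 205, 230.2 and 64.7 RPM, Etv4, an Ets factor induced by Erk, 129, 109 and 53.6, and Fgfr2 23.3, 20.7 and 54.0. Etv5, a close relative of Etv4, had 352, 332 and 417 RPM and did not follow it.

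Of the 9 Nodal and BMP genes above the midpoint, the ligand Nodal (115, 110.3 and 40.3 RPM) and the inhibitor Smad7 (119, 94.0 and 29.4) stood at least 10 points lower in cMyc flox. Against 2.7% lower and 3.95% higher over all genes, Id3, a target of BMP signalling, stood higher, with 29.1, 26.8 and 69.1 RPM. Lefty1, a Nodal antagonist, had 275, 268 and 136. For Nodal and Lefty1 the Dcr WT libraries differed little beside the distance to cMyc flox.

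The genes that the series deletes were present in these controls. Dicer1 had 111 and 112 RPM in Dcr WT and 213 in cMyc flox, at percentiles 86.2, 86.3 and 94.1. Of the 14 listed microRNA genes above the midpoint, 0 stood at least 10 points away, against 3.95% higher and 2.7% lower over all genes. Ago2, the slicing Argonaute, had 548, 712 and 466 RPM. Myc had 60.7, 44.7 and 30.3 RPM, at percentiles 75.7, 68.6 and 62.3, so the floxed line stood below both Dcr WT libraries for the gene whose alleles are floxed. Mycn, the Myc paralogue that ESCs also express, had 515, 473 and 205.

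Most DNA methylation and Polycomb genes lay within 10 points. Of 11 DNA methylation and Tet genes, 2 stood higher (Tdg and Tet3) and 0 lower, against 3.95% and 2.7% of all genes. Dnmt1, the maintenance methyltransferase, had 635, 554 and 519 RPM. Of 17 Polycomb genes above the midpoint, Phf19 and Rybp stood higher and Eed lower, against the same shares. Phc1, a PRC1 subunit, had 1238, 1383 and 1104 RPM. The 339 zinc finger genes named Zfp with a number had medians of 49.8, 49.7 and 50.3, with 13 of 172 higher and 4 lower, against 3.95% and 2.7%, and 9 and 4 of 172 with the midpoint set by Dcr WT alone. Zfp943 had 3.90, 6.91 and 126.

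Several keratins stood higher in cMyc flox. These filament proteins are typical of epithelia, and Krt8 and Krt18 also appear in the first embryonic epithelium, the trophectoderm. Of 41 keratin genes, 6 lay above the midpoint and 5 of them stood at least 10 points higher in cMyc flox, against 3.95% of all genes. By the Dcr WT ranks alone, 3 lay above the midpoint, and those 3 stood higher. The Dcr WT libraries themselves lay 10 or more points apart at 2 of the 6, Krt18 and Krt7, against 3.17% of all genes. Krt18 had 59.8 and 111 RPM in Dcr WT and 697 in cMyc flox, a ratio of 11.6 (95% interval 11.27 to 12.04) and 6.28 (6.13 to 6.43). Krt8, its partner, had 59.3, 87.9 and 479, Krt19 26.4, 30.2 and 195, Krt7 5.25, 14.2 and 86.9, and Krt42 16.3, 13.9 and 54.3. The keratins together took 189, 282 and 1554 RPM, and 8, 9 and 13 of the 41 had no read.

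The 15 trophoblast markers, which include Krt7, Krt8 and Krt18, summed to 429.6, 482 and 1605 RPM. Without these keratins, the other 12 summed to 305, 269 and 343. Of 7 above the midpoint, Fgfr2 and the same 3 keratins stood at least 10 points higher, against 3.95% of all genes. Krt7 was below percentile 50 in both Dcr WT libraries and passed the midpoint through cMyc flox. With the midpoint set by Dcr WT alone, 3 of 6 stood higher. The Dcr WT libraries lay 10 or more points apart at 2 of the 7, against 3.17% of all genes. Among transcription factors of the lineage, Tfap2c, the highest of the list by mean percentile, had 151, 117 and 136 RPM. Some others were low and differed in direction: Cdx2 had 1.28, 0.573 and 0.476 RPM, Eomes 11.8, 9.05 and 4.49, and Elf5 0.0222, 0.0109 and 0.272. Hand1, which also marks mesoderm, had 1.63, 4.84 and 24.1, and Gata3 1.27, 2.92 and 9.99. No member was at 0 in any library.

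Fibroblast and feeder markers (22 genes) summed to 1999.8, 1804 and 2155 RPM, and most of it was Fn1, fibronectin, with 1731, 1449 and 1477. Of 7 above the midpoint, Col1a1 (10.3, 32.9 and 78.7 RPM), Acta2 (28.7, 66.7 and 168) and Cnn1 (12.8, 16.9 and 31.7) stood at least 10 points higher in cMyc flox, against 3.95% of all genes. With the midpoint set by Dcr WT alone, 2 of 7 stood higher. The Dcr WT libraries lay 10 or more points apart at 3 of the 7. For Acta2 the distance (14.9 points) was smaller than the gap between the Dcr WT libraries (16.6). Of all 22 genes, 8, 10 and 8 had at least 10 RPM in Dcr WT 1, Dcr WT 2 and cMyc flox. Some others were near 0: Dcn had 0.0445, 0.0491 and 0.136, Lum 0.0222, 0.0109 and 0, and Prrx1 0.0222, 0.0818 and 0.0677. Postn had no read in Dcr WT 1.

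Extraembryonic endoderm markers (19 genes) summed to 2159, 2768 and 2556 RPM. Apoe, the highest member, had 645, 1001 and 589 RPM. Basement membrane genes of the list were well read in every library. Of 7 members above the midpoint, Col4a1 (70.1, 71.1 and 126 RPM) and Col4a2 (33.1, 42.5 and 84.2) stood at least 10 points higher, against 3.95% of all genes. Col4a1 lay just past the threshold (10.05 points). The defining factors were low: Gata6 had 2.25, 0.856 and 0.476, Sox17 0.934, 0.442 and 0.544, and Afp had no read in any library. Primitive streak and mesoderm markers (15 genes) summed to 37.4, 28.9 and 42.3, with 0 above the midpoint; Mixl1, a factor of the primitive streak, had 1.74, 1.97 and 0.747, Msgn1 had no read in Dcr WT 1 or cMyc flox, and Cer1 none in cMyc flox. Neural markers (16 genes) summed to 306, 201 and 263, with Neurog2 without a read in cMyc flox and Pou3f2 without one in Dcr WT 1. Of the 3 neural markers above the midpoint, 1 lay above both Dcr WT libraries in cMyc flox, 1 below both and 1 between. Nes (51.3, 56.5 and 90.2) was the 1 at least 10 points higher, against 3.95% of all genes, and lay just past the threshold. Tubb3, the highest member, had 168, 92.3 and 129, so cMyc flox lay between the Dcr WT libraries. The part of other cell types in the differences between the lines was not tested.

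Genes of other organs had few reads. The 65 olfactory receptors summed to 2.69, 2.07 and 5.43 RPM, and 40, 38 and 41 of them had no read. The 30 Hox genes summed to 28.02, 20.5 and 9.72. An exception in cMyc flox were the 21 Rhox genes, reproductive homeobox genes of the X chromosome, which summed to 6.07, 12.3 and 114, with Rhox6 (2.35, 6.17 and 54.1) and Rhox9 (2.16, 4.07 and 46.7) making up most of the cMyc flox sum. Of 6 Y-linked genes listed, all had reads in each library, but Usp9y had only 1, 23 and 2 reads and Zfy2 2, 2 and 9. Uty, a histone demethylase paralogue, had 29.0, 52.2 and 15.8 RPM, and Eif2s3y, a translation initiation subunit, had 23.3, 37.9 and 11.2. They were the 2 members above the midpoint, and both stood at least 10 points lower in cMyc flox, against 2.7% of all genes. For Uty the distance (-10.3 points) was smaller in size than the gap between the Dcr WT libraries (11.3). For Eif2s3y the distance was -11.1 and the gap 8.68.

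Among the 12 genes farthest below both Dcr WT libraries, several encode signalling and adhesion proteins. Adam23, a membrane protein without protease activity, had 178, 180.5 and 27.4 RPM. Ntn1, the guidance cue netrin, had 131, 77.3 and 14.5. Both genes lay below both Dcr WT libraries by more than those differed from each other.

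Olig2, a basic helix-loop-helix factor of the oligodendrocyte lineage, had 89.2, 97.6 and 26.2 RPM. Cth, which makes cysteine from cystathionine, had 113, 176 and 30.9, and Pdgfc, a growth factor, 43.7, 46.1 and 11.6. Mid1, a ubiquitin ligase of microtubules, had 128, 89.7 and 24.3. Others were Tbx3, Uqcr11, Tmem258, Cox6b2 and Slirp, the last a binding protein of mitochondrial mRNAs with 53.3, 51.8 and 14.9.

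Of the 12 farthest above, 8 were ribosomal proteins (Rpl36a, Rpl23a, Rps29, Rpl31, Rpl35, Rps13, Rpl9 and Rpl36). The others were Zfp943, Gstp3, a glutathione transferase with 14.2, 7.04 and 204 RPM, Pigp, of the first step of GPI anchor synthesis, with 7.60, 10.4 and 99.3, and Ube2s, the ubiquitin-conjugating enzyme of the anaphase-promoting complex, with 23.6, 12.2 and 409. By the Dcr WT ranks alone, Ube2s was the only gene of the 12 above the midpoint. The rest passed it through cMyc flox, so the list was chosen in part by the rank it reports. With ribosomal proteins and genes with a named pseudogene set aside after seeing the values, the next farthest included Nrk (3.66, 13.5 and 118), a kinase of placenta, H2az1 (24.5, 25.5 and 274), a histone variant, and Idi1 (7.86, 17.4 and 89.4), an enzyme of sterol synthesis. Nrk and Idi1 also passed the midpoint through cMyc flox, and H2az1 did not. Gene families with near-identical members, such as Gstp, may divide reads among copies, so their values are uncertain.

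Some genes above the midpoint also lay far apart between the Dcr WT libraries. Tmsb10, an actin-binding peptide, had 68.7, 12.2 and 17.7 RPM, at percentiles 78.2, 45.4 and 52.2. Atp5g1, of the ATP synthase ring, had 141, 38.4 and 126. S100a6, a calcium-binding protein, had 13.9, 54.8 and 135. These were chosen after their values were seen, among the widest gaps within the pair. At Tmsb10 the cMyc flox library was near Dcr WT 2, and at Atp5g1 near Dcr WT 1.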

How the data were processed

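RNA libraries make up 7 of the 11 samples, of which the 3 controls were used. The submitters' processing notes name TopHat, Bowtie, DESeq and mm9 without saying what each did; no source used here gives the counter, the gene models, the use of strand or any filter. In the deposited tables each value is a normalised signal that equals whole reads times a constant of its library: within 0.01 read, 100% of values were whole in Dcr WT and 99.997% in cMyc flox. Features number 48942 for the Dcr libraries and 39889 for the cMyc libraries; of 19683 and 16484 RefSeq coding rows, 16484 are in both. Value columns without a sample numbered 0. RefSeq (GRCm38.p6) gave symbols, pseudogene names and start sequences; 16246 entries matched a symbol, 238 did not, and 10 symbols have 2 rows.

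Percentiles, RPM and exact (Clopper-Pearson) 95% intervals of read ratios were computed with Python 3.11.15, pandas 2.3.3, numpy 2.4.6 and scipy 1.17.1, and figures with matplotlib 3.10.9. The ranking rule was tested on simulated data. PCR reads are not independent molecules, so intervals cover counting error only. The lines were not compared by a test. The planned order per kb was replaced by the order of reads, since transcript lengths were not used here.

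The members and the 50 gene lists were chosen with earlier results of these data known. Named genes were those of the pluripotency and Dppa lists, Dicer1 and Myc, the 12 with the highest mean percentile, the 5 highest of any library, the 12 farthest above and below, the highest and up to 4 differing members of each list, and Y-linked genes. Genes named beyond these were chosen after their values were seen. Some genes that the rule names are not reported here.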

Additional observations from a re-analysis of the deposited data

How the results depend on the processing

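The counts of genes at least 10 points higher and lower in cMyc flox (328 and 224) depend on the rule. With 1 Dcr WT library left out in turn they ranged from 464 to 616 and from 321 to 528, and all 328 and 224 were among them. That retention follows from the distance rule, since a gene 10 points beyond both libraries is 10 points beyond each. They were 728 and 391 over all shared genes, 72 and 66 for genes with a mean percentile of at least 75, and 116 and 19 at 20 points. At 2-fold in RPM, with 1 added to each level, they were 250 and 133. Ranked within each library's own table they were 183 and 1035, since the Dcr table has 3199 further rows, 2741 of them without a read in Dcr WT. Without ribosomal protein genes they were 292 and 208. With the midpoint set by the Dcr WT libraries alone, also chosen after seeing the data, they were 248 and 244. Without genes that have a named pseudogene, a setting chosen after seeing the data, they were 259 and 198, and of the 232 and 220 such genes counted before, 232 and 194 remained.

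The share of the top 100 common to all 3 libraries (60%) was 65% to 68% with 1 Dcr WT library left out and 71.8% for the top 500. Over all shared genes, rho was 0.991 within Dcr WT and 0.965 and 0.972 with cMyc flox. Of 49 family differences, own-table ranks reversed 3: imprinted genes (-1.16 points), MHC class I (-3.40) and PRAME-like and Xlr genes (-8.62). Another 41 moved without reversing, and 5 stayed the same. Of 188 named genes, 118 moved with own-table ranks and 70 stayed the same. Leaving out either Dcr WT library reversed none of 188 named genes or 49 families. Orders per kb were not run. No paired analysis was possible because cMyc flox has 1 library and no result comes from a test. Depth limits the cMyc flox library most, with 14714503 reads on shared genes and 62 reads at the least-read differing gene.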

Other observations

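Of the lists not described so far, metabolic and stress genes differed in a few members. Cholesterol synthesis (19 genes) had 2 higher in cMyc flox, Idi1 and Fdps, the latter with 32.7, 35.1 and 122 RPM in Dcr WT 1, Dcr WT 2 and cMyc flox, against 3.95% of all genes. With the midpoint set by Dcr WT alone, 1 of 18 stood higher. The serine synthesis and Atf4 list had 1 of 15 lower, against 2.7% of all genes: Chac1, a glutathione-degrading enzyme, with 26.3, 24.6 and 4.89. By any distance, 13 of the 15 stood below both Dcr WT libraries. Gpx4, which reduces lipid peroxides, had 17.0, 39.5 and 223, and has 2 named pseudogenes. H2-K1, a class I histocompatibility gene, had 31.2, 33.5 and 59.0. Peg10, an imprinted gene derived from a retrotransposon, had 311, 814 and 1875 RPM. Replication-dependent histones, whose mRNAs mostly lack a poly(A) tail, summed to 427, 669.5 and 1258 RPM, with 5 of 10 higher, against 3.95% of all genes; the Dcr WT libraries lay 10 or more points apart at 5 of the 10, and with the midpoint set by Dcr WT alone 1 of 6 stood higher.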
